A study of Mus musculus with 6 samples.

Results

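The 10 genes described here encode surface, matrix and ligand proteins of blood vessel endothelium: Cdh5, Pecam1, Clec14a, Mmrn2, Cd93, Robo4, Tek, Tie1, Angpt2 and Eng. They were taken from a list of endothelial identity and vessel stability genes. All 10 of the 10 were measured among 19938 genes, each by 1 probe set annotated with that symbol alone. The cells were mouse lung endothelial cells of C57BL/6 background. One group had been stably transfected with an empty pcDNA3.1/Hygro(-) vector (control, 3 arrays) and the other with the same vector carrying full-length mouse L1CAM, spelled LICAM in the labels (L1CAM, 3 arrays). L1CAM is a transmembrane adhesion molecule best known from neurons. All 6 cultures grew for 4 days to confluence on crosslinked gelatin, in MCDB131 medium with 20% serum, heparin and endothelial growth supplement. The labels call the replicates biological and the experiments independent, and tell apart 1 transfectant per group. They do not say whether it was a clone or a pool, so an effect of L1CAM and a difference between these transfectants cannot be told apart.

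Endothelial cells are held together by VE-cadherin, the product of Cdh5, and by PECAM1. The receptor kinase TEK, also called TIE2, receives angiopoietin signals that keep vessels quiescent, and ANGPT2 is the context-dependent antagonist of that signal. TIE1 is a relative of TEK. CLEC14A and CD93 are lectin-like surface proteins that bind the matrix protein MMRN2. ENG is a co-receptor for ligands of the BMP family, and ROBO4 is a guidance receptor that stabilises vessels.

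Expression is given as log2 RMA values, a scale on which a difference of 1 is a doubling of signal. The array medians over all probe sets lay between 6.55 and 6.58. L1cam read 6.50, 6.77 and 7.31 in control replicates 1, 2 and 3 and 10.49, 10.60 and 10.73 in L1CAM replicates 1, 2 and 3, on the sides their labels name. L1CAM replicate 1 stood apart: across genes it correlated at 0.9948 and 0.9951 with the other L1CAM arrays, which correlated at 0.9986 with each other, and at 0.9952, 0.9935 and 0.9938 with control replicates 1, 2 and 3. Results that rest on it are also given without it. Most of the defining endothelial markers were bright. All 10 of that list lay above the array median, here meaning on 3 or more of the 6 arrays, as did 11409 of 19938 genes. Cldn5 and Vwf did so only narrowly, with control means of 7.08 and 6.85. These lay at percentiles 49.5 and 46.9 of the genes tested, so these 2 were not bright. Of the markers of other cell types, 3 of 4 lymphatic endothelial (Lyve1, Pdpn and Flt4, not Prox1), 1 of 6 epithelial and 2 of 5 leukocyte markers lay above the array median. For fibroblast, pericyte and smooth muscle, and mesothelial markers it was 3 of 6, 2 of 6 and 0 of 4. Acta2, of the pericyte and smooth muscle list, was borderline, with means of 6.56 in control and 6.48 in L1CAM cells. The leukocyte and macrophage marker Cd68 was bright, with a control mean of 12.23, and so was Lyve1, a lymphatic and lung endothelial receptor, at 11.76, and neither passed the test between the groups (limma adjusted p = 0.32 and 0.529). The mean levels per array of the epithelial, leukocyte, fibroblast, pericyte and smooth muscle, and mesothelial lists were 5.60 to 5.76, 6.57 to 6.65, 6.12 to 6.24, 5.89 to 6.06 and 6.24 to 6.43 over the 6 arrays, against 7.77 to 8.03 for the lymphatic and 11.27 to 11.39 for the endothelial list. Of these list means, 2 moved with the groups without overlap: the endothelial mean, which includes Cdh5, Pecam1, Tek and Tie1, was 11.37 to 11.39 in control and 11.27 to 11.31 in L1CAM arrays, and the mesothelial mean 6.24 to 6.31 and 6.36 to 6.43. Their part in the results below was not tested. The mesothelial marker Msln was called higher (0.30, limma adjusted p = 0.0319), from a control mean of 6.24, below the array medians, and of the 6 fits with an array left out it was called only without L1CAM replicate 1. Krt19, also of that list, measured 0.17 (limma adjusted p = 0.152). Ptprc, Epcam and Lum lay between 3.45 and 5.24 on every array, but other markers of their lists were brighter. Beside Cd68 these included the epithelial Krt8, with a control mean of 7.29. The fibroblast markers Col1a1, Pdgfra and Col1a2 had control means of 7.65, 7.63 and 7.38, so RNA of these cell types was not shown to be absent. In RNA from whole cultures, fewer cells of a type and less RNA per cell cannot be told apart.

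Of the 10 genes, 1 was higher and 2 were lower in L1CAM cells, and 7 did not pass the test. Clec14a and Mmrn2 fell and Robo4 rose. The test was limma's moderated test with Benjamini-Hochberg adjustment over 19938 genes and a threshold of 0.05. It called 15% of all genes, 6.85% as higher and 8.19% as lower, and 19.4% of the 1994 genes that make up the brightest 10% in control cells, to which 7 of the 10 belong. The 3 called of 10 stand beside these shares and are not a result about the group as a whole. The median difference of the 10 genes, L1CAM minus control, was -0.08, against 0.02 over all genes. The p-values measure the spread between these replicate cultures.

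The start region of Clec14a, the gene with the largest change, is shown first, with those of Tie1 and Eng, which were not called, because ETS factors are known to drive endothelial genes and bind sites built on the core GGAA. RefSeq start regions on GRCm38.p6 were matched for 5 of the 10 genes, Clec14a, Eng, Robo4, Tek and Tie1. The 250 bases before the start are printed 5' to 3', with capitals marking GGAA on either strand (TTCC when it lies on the other).
Clec14a, chr12:58269259-58269508 (- strand): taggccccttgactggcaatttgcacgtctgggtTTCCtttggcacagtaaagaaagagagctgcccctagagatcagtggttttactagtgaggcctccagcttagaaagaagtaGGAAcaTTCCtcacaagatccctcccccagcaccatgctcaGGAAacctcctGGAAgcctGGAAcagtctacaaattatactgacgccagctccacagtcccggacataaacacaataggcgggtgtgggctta
Tie1, chr4:118489850-118490099 (- strand): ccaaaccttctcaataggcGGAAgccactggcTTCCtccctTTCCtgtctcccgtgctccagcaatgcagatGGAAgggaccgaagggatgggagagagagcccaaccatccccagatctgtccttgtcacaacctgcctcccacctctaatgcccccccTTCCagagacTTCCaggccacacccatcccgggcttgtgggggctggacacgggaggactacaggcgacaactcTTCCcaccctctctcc
Eng, chr2:32646345-32646594 (+ strand): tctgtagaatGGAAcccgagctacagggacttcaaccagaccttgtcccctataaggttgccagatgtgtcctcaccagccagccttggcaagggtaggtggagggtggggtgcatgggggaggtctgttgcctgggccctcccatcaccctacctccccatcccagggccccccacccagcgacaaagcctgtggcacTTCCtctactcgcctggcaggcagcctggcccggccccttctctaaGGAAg
The Clec14a window held 6 GGAA matches and that of Tie1 7. Eng had 3 such matches, Robo4 3 and Tek 2. The windows of Robo4 and Tek partly overlapped another transcript of the same gene, and all matches of these 2 genes lay in that overlap. Outside it, Robo4 kept 180 bases with 0 matches. Of all 32851 start regions, 93.4% held at least 1 match in 250 bases, so the core by itself sets none of these genes apart. The longer ETS form AGGAAG, which contains the core, was found in Eng (2 matches), Tie1 (1) and Robo4 (1, within the overlap). It was found in 29.5% of all start regions. CCGGAA was found in none of the 5 and in 12.03% of all. Among the other letters searched on both strands, the SOX letters ATTGTT occurred once, in the overlapping part of the Tek window (9.42% of all start regions). CANNTG, the E-box, occurred in Eng, Tek, Tie1 and Robo4 but not in Clec14a (66.2% of all). The GATA letters AGATAA (9.99%), the FOX letters TGTTTAC (3.17%) and TATAAA (12.4%) had no match in the 5 windows. A match is a description of letters, and no binding was measured.

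In control cells most of the 10 genes were among the brightest on the array. Cdh5 ranked 22 of 19938 genes at 13.12 ± 0.02 (log2 level, SD, n = 3 arrays), at percentile 99.9. Pecam1, Tie1, Cd93 and Mmrn2 followed at ranks 127, 128, 129 and 134, with control means of 12.65, 12.65, 12.64 and 12.63. The control arrays of these neighbours overlapped, so their order was not resolved. Eng came next at 12.45 ± 0.02 and rank 207, below every control array of Mmrn2, and then Tek at 11.58 ± 0.03 and rank 803. Clec14a (10.07 ± 0.07, rank 3558) and Robo4 (9.98 ± 0.06, rank 3743) overlapped each other and lay clearly below Tek. Angpt2 was the exception, at 5.91 ± 0.10 and rank 13483, below the array medians, and it was not shown to be above background. Brightness also depends on the probes of each probe set, so these ranks order signals and not numbers of transcripts. The brightest values approached the top of the scale (highest value per array 13.7 to 13.8), and whether this compresses differences was not tested.

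**Figure D1:**
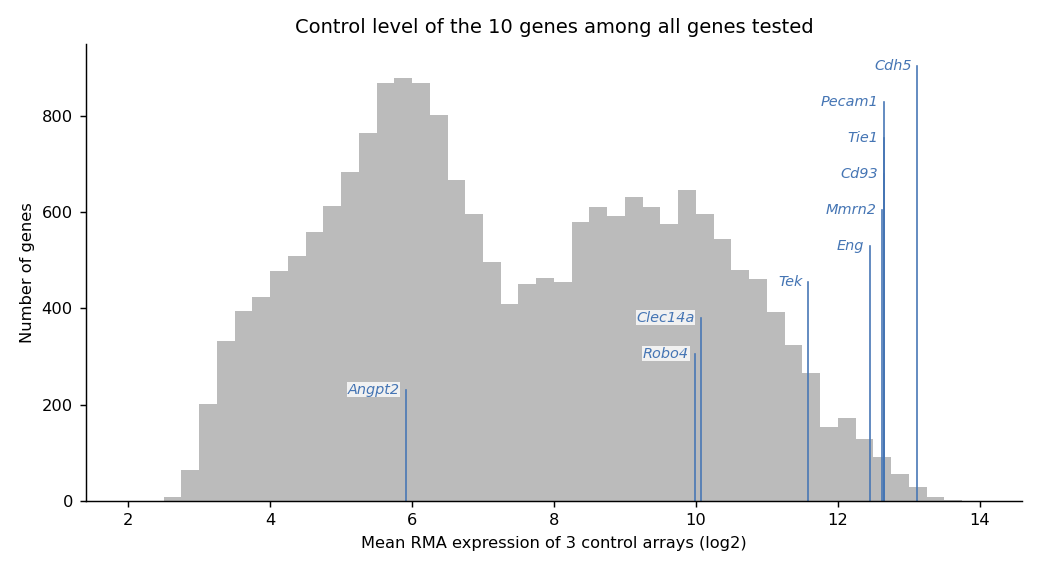
Number of genes (vertical axis) by mean RMA expression of the 3 control arrays (log2, horizontal axis) for 19938 genes, with a line at each of the 10 genes. Cdh5, Pecam1, Tie1, Cd93, Mmrn2, Eng and Tek lie in the bright tail, Clec14a and Robo4 near 10, and Angpt2 at 5.91 in the dim peak; the height of a line has no meaning.

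In L1CAM cells the ranks of several genes differed from those in control cells. Mmrn2 moved from rank 134 to 504, and Eng from 207 to 305. In L1CAM replicate 1 Mmrn2 (12.25) lay just above Eng (12.24). In L1CAM replicates 2 and 3 Mmrn2 (11.83 and 11.84) lay below Eng (12.30 and 12.29). Clec14a moved from rank 3558 to 7150, and Robo4 from 3743 to 2729. The L1CAM arrays of Robo4 and Clec14a no longer overlapped. Cd93 ranked 128, Pecam1 152 and Tie1 166, after a control order that was not resolved. The L1CAM arrays of Cd93 overlapped those of Pecam1 and lay above those of Tie1. Cd93, Pecam1 and Tie1 did not pass the test between the groups. Cdh5 (rank 37), Cd93, Pecam1, Tie1, Eng, Mmrn2 and Tek (943) stayed among the bright genes, at L1CAM percentiles of 95.3 or higher. Clec14a and Robo4 lay at percentiles 64.1 and 86.3.

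The junction proteins differed little between the groups. Cdh5 read 13.10, 13.13 and 13.13 in control replicates 1, 2 and 3 and 13.07, 13.04 and 13.02 in L1CAM replicates 1, 2 and 3. Every L1CAM array was below every control array, but by a gap of only 0.03. The difference was -0.08 (SE 0.05, 95% interval -0.19 to 0.04) with a limma adjusted p of 0.368, so a loss of up to 12.6% of signal lies within the interval. Pecam1, an immunoglobulin-type adhesion receptor of cell borders, read 12.67, 12.65 and 12.63 in control cells and 12.57, 12.56 and 12.61 in L1CAM cells, also without overlap. Its difference was -0.07 (95% interval -0.19 to 0.05, limma adjusted p = 0.411). The signal of Pecam1 relative to that of Cdh5 on the same array moved by 0.0058 between the groups (exact permutation test, two-sided, p = 0.9), within the spread of the arrays.

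**Figure D2:**
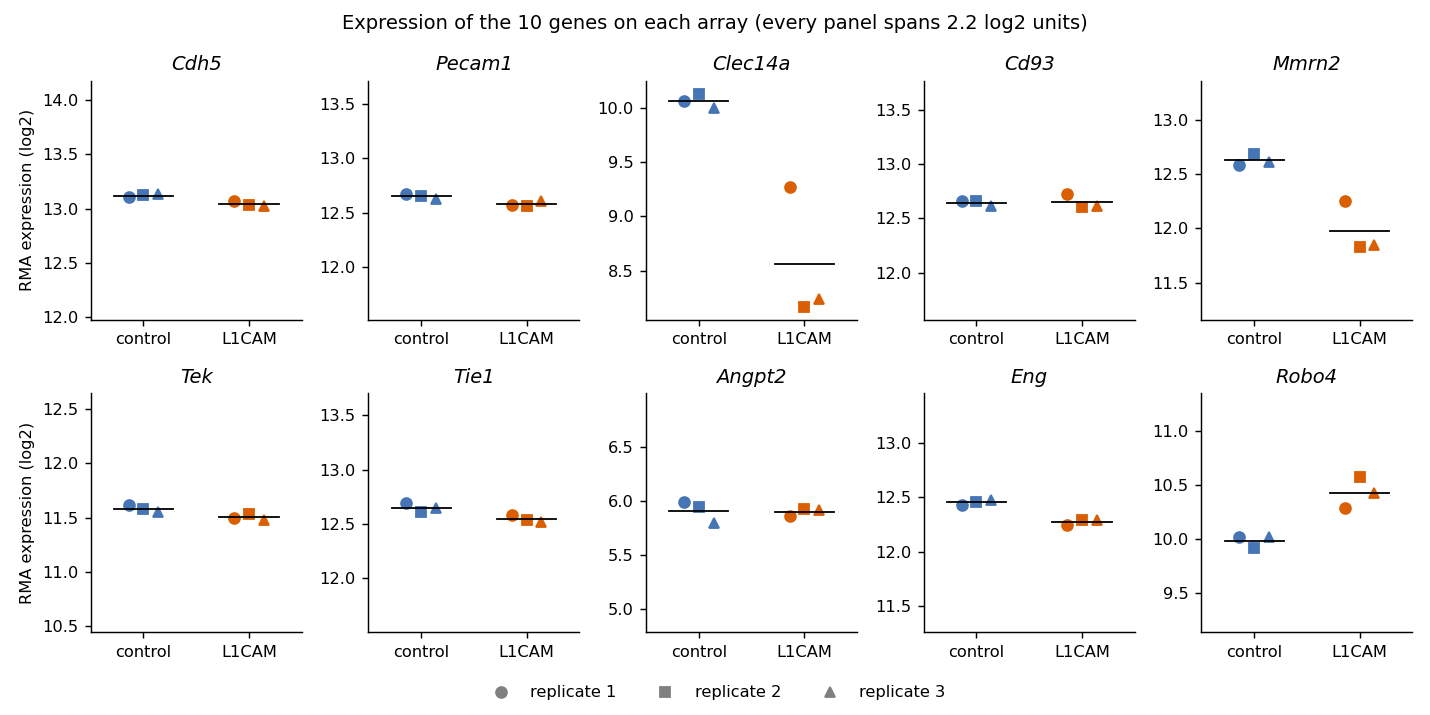
RMA expression (log2, vertical axis) of each of the 10 genes on the 3 control arrays (blue) and 3 L1CAM arrays (orange); symbols mark the replicate number, bars the group mean, and every panel spans the same number of log2 units. Clec14a and Mmrn2 are lower and Robo4 higher on all 3 L1CAM arrays, while the groups of Cd93 and Angpt2 overlap.

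Among the lectin-like proteins and their matrix partner, Clec14a and Mmrn2 fell and Cd93 did not pass the test. Clec14a read 10.06, 10.13 and 10.001 in control replicates 1, 2 and 3 and 9.27, 8.16 and 8.24 in L1CAM replicates 1, 2 and 3. All L1CAM arrays lay at least 0.73 below all control arrays, with replicate 1 the least changed. The difference was -1.51 (SE 0.26, 95% interval -2.12 to -0.89), 2.84-fold lower, with a limma adjusted p of 0.0104. Ordered from the most negative difference, Clec14a ranked 59 among the 19938 genes. Mmrn2, a secreted protein of the EMILIN family laid down around vessels, read 12.58, 12.69 and 12.61 in control replicates and 12.25, 11.83 and 11.84 in L1CAM replicates. Again the groups did not overlap and L1CAM replicate 1 was nearest to the control arrays. The difference was -0.65 (SE 0.11, 95% interval -0.92 to -0.39), 1.57-fold lower, with a limma adjusted p of 0.0104. Cd93 read 12.65, 12.66 and 12.61 in control cells and 12.72, 12.61 and 12.61 in L1CAM cells. Its groups overlapped, with L1CAM replicate 1 the brightest of the 6 arrays. Its difference was 0.0052 (95% interval -0.13 to 0.14, limma adjusted p = 0.967), which bounds any fall at 8.41% of signal.

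Both falls depended on single control arrays for their calls. Clec14a gave -1.47 without control replicate 2 (limma adjusted p = 0.0535). Mmrn2 gave -0.62 without control replicate 2 (limma adjusted p = 0.0550) and -0.66 without control replicate 3 (limma adjusted p = 0.05004, just over the threshold). The 15 alternatives included a test against a difference of 0.5, which called neither gene (limma adjusted p = 0.224 for Clec14a). In the others the limma or linear-model adjusted p ranged from 6.31e-06 to 0.110 for Clec14a and from 6.41e-05 to 0.0995 for Mmrn2. The differences themselves stayed between -1.86 and -1.31 for Clec14a and between -0.79 and -0.58 for Mmrn2. Without L1CAM replicate 1, which carried 42.6% of the mean deviation of replicates 2 and 3 for Clec14a and 47.1% for Mmrn2, the differences were -1.86 and -0.79. In that fit 24.8% of all genes were called.

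**Figure D3:**
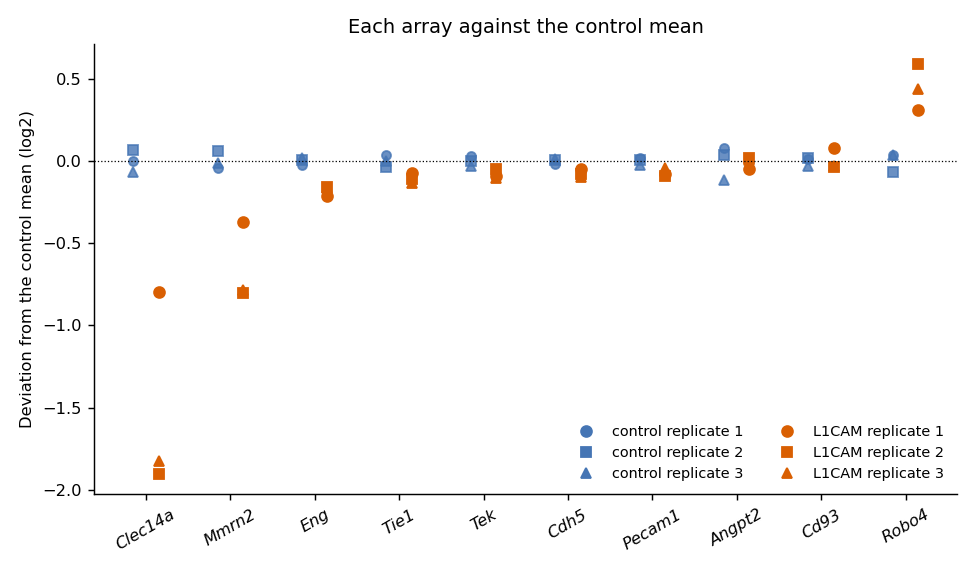
Deviation of each array from the control mean (log2, vertical axis) for the 10 genes, control arrays in blue and L1CAM arrays in orange, with symbols for the replicate number. L1CAM replicate 1 (circle) lies nearer to the control mean than replicates 2 and 3 for Clec14a, Mmrn2 and Robo4, and farther from it for Eng.

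Within an array, the signal of Clec14a relative to Cd93 fell from -2.58 ± 0.04 to -4.09 ± 0.55 and that of Mmrn2 relative to Cd93 from -0.02 ± 0.05 to -0.67 ± 0.18 (log2 difference between probe sets, SD, n = 3 arrays, a two-sided exact permutation test gave p = 0.1 for each). Clec14a also moved by -0.86 relative to Mmrn2 (exact permutation p = 0.1). The groups of these 3 ratios did not overlap. With 3 arrays against 3 the smallest p that the permutations can give is 0.1, and adjusted over the 9 pairs of genes compared it was 0.18, so none of these differences between genes can pass the threshold.

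The TIE receptor genes and Angpt2 did not pass the test. Tek read 11.61, 11.58 and 11.56 in control replicates 1, 2 and 3 and 11.49, 11.54 and 11.48 in L1CAM replicates 1, 2 and 3. The groups did not overlap, with a gap of 0.02. The difference was -0.08 (95% interval -0.20 to 0.04, limma adjusted p = 0.365). Tie1 read 12.69, 12.61 and 12.65 in control cells and 12.58, 12.54 and 12.52 in L1CAM cells, again without overlap. Its difference was -0.11 (SE 0.05, 95% interval -0.23 to 0.02, limma adjusted p = 0.238), which allows a fall of up to 14.6%. Angpt2 read 5.98, 5.95 and 5.80 in control cells and 5.86, 5.93 and 5.91 in L1CAM cells, with overlapping groups. Its difference was -0.0097 (95% interval -0.16 to 0.14, limma adjusted p = 0.946), and at this dim level a difference in transcript need not show. The signal of Tek relative to Tie1 moved by 0.03 (exact permutation p = 0.5), and that of Angpt2 by 0.07 relative to Tek and by 0.10 relative to Tie1 (exact permutation p = 0.3 for each), all with overlapping arrays.

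Eng lay closest to the threshold of the genes that were not called. It read 12.43, 12.46 and 12.47 in control replicates 1, 2 and 3 and 12.24, 12.30 and 12.29 in L1CAM replicates 1, 2 and 3. All L1CAM arrays were at least 0.13 below all control arrays, and here L1CAM replicate 1 was the lowest. The difference was -0.18 (SE 0.05, 95% interval -0.30 to -0.06), a signal 11.6% lower, with a limma adjusted p of 0.0556. It passed under 4 of 15 alternatives, with adjusted p of 0.0280 when dim probe sets were left out, 0.0110 with an intensity trend and robust prior, 0.0466 in an ordinary linear model and 0.0313 with array weights. Apart from the test against a difference of 0.5, which did not call Eng, the limma or linear-model adjusted p ranged from 0.0110 to 0.163. Over all alternatives the difference ranged from -0.19 to -0.16. Relative to Cdh5 on the same array, Eng moved by -0.10 without overlap of the groups (exact permutation p = 0.1, 0.18 adjusted over the pairs).

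Robo4 was the member that rose. It read 10.02, 9.92 and 10.02 in control replicates 1, 2 and 3 and 10.29, 10.57 and 10.42 in L1CAM replicates 1, 2 and 3. Every L1CAM array was above every control array by at least 0.28. The difference was 0.44 (SE 0.08, 95% interval 0.26 to 0.63), 1.36-fold higher, with a limma adjusted p of 0.0112. The call was lost without control replicate 2 (0.41, limma adjusted p = 0.0571) and in an ordinary linear model (adjusted p = 0.0862). It was also lost in the test against a difference of 0.5. Apart from that test the limma or linear-model adjusted p ranged from 0.00111 to 0.0862. Relative to Cdh5 it moved by 0.52 (exact permutation p = 0.1, 0.18 adjusted over the pairs).

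**Figure D4:**
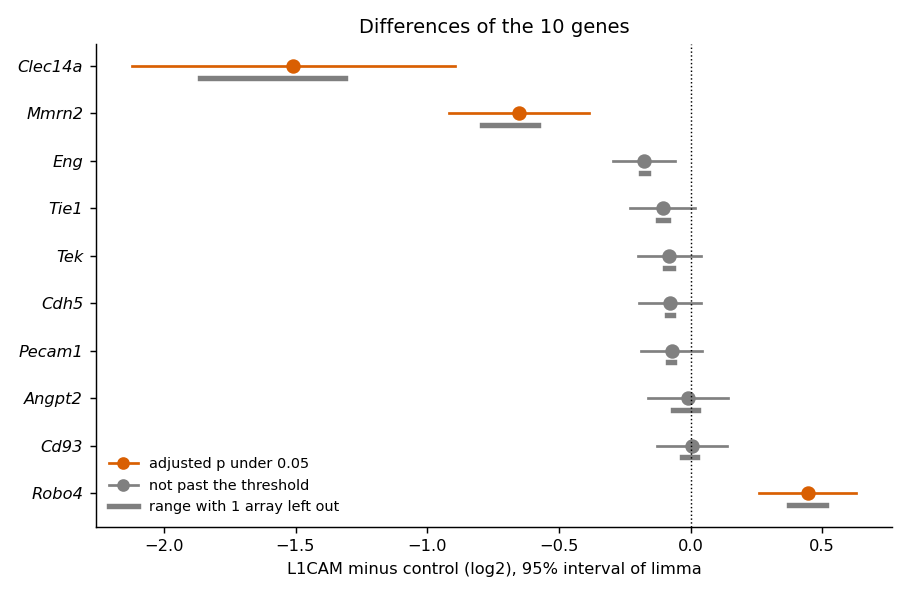
Difference L1CAM minus control (log2, horizontal axis) of the 10 genes with the 95% interval of the limma fit, orange where the adjusted p is under 0.05, and a thick grey bar for the range when any 1 array is left out. The intervals of Clec14a, Mmrn2, Eng and Robo4 lie off 0 before adjustment, and those of the other 6 genes include it.

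In 7 of the 10 genes, Cdh5, Pecam1, Clec14a, Mmrn2, Tek, Tie1 and Eng, all L1CAM arrays were lower than all control arrays, and in Robo4 all were higher. Such separation in either direction was seen in 34.6% of all genes, and downward in 16% of all genes and 27.3% of the brightest 10%. The genes were chosen with these results in view, so the count is a description. The 5 that separated without being called, Cdh5, Pecam1, Tek, Tie1 and Eng, differed by 0.07 to 0.18 on the log2 scale in size. The spread between L1CAM arrays was 9.43 times that between control arrays for Clec14a, 4.41 times for Mmrn2 and 2.43 times for Robo4. It was 0.81 to 1.66 times for those 5 genes. For Cd93 and Angpt2, also not called, it was 2.64 and 0.37 times, so a wide spread was not confined to called genes.

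Genes that act with the 10 or are related to them, and a list of other pan-endothelial markers, were read in the same fit. Together they are called partner genes here. Of these 87 genes, 7 rose and 10 fell, or 19.5%, against 15% of all genes. Their median difference was -0.02. The list of other pan-endothelial markers gave 8 of the 17 calls. The total depended on single arrays, with 3 to 26 called when any array was left out. It was 26 without L1CAM replicate 1 and 3 without control replicate 2 or control replicate 3. The count over all genes moved the same way in these fits. It was 2999 with all arrays and 4952 without L1CAM replicate 1. Without control replicate 2 it was 1033, and without control replicate 3 it was 1064. The swing is therefore not a result about the partner genes. Of the partner genes called, Jam2, Thbd and Tgfbr3 were called in all 6 fits with an array left out.

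In the TIE and angiopoietin list, 2 of 17 genes were higher and 5 lower at an unadjusted limma p under 0.05. Of all genes, 29% passed that cut, so these counts are not a result about the list. Its median was -0.01. After adjustment 0 of the 17 rose and 1 fell by the limma test (5.88% called, against 15% of all genes). The gene that fell was Shc1, an adaptor of receptor kinases, at -0.35 (limma adjusted p = 0.0182), and of the 6 fits with an array left out it was called only without L1CAM replicate 1. Angpt1, the main agonist of TEK, and Ptprb, the phosphatase VE-PTP that restrains TEK and binds VE-cadherin, are named here for their roles after their values were seen. Angpt1 was dim at 3.69, 3.77 and 3.62 in control cells and 3.65, 3.75 and 3.58 in L1CAM cells. Neither Angpt1 nor Angpt2 was therefore shown to be above background in these cultures. Ptprb read 12.26, 12.22 and 12.26 in control cells and 12.13, 12.10 and 11.94 in L1CAM cells, a difference of -0.19 (limma adjusted p = 0.0878, and 0.0381 without L1CAM replicate 1).

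In the VE-cadherin complex list 1 of 10 genes rose and 1 fell (20% called, against 15% of all genes), with a median of -0.09. Afdn, an actin-binding scaffold of junctions, rose by 0.32 (limma adjusted p = 0.0386), and Vcl, vinculin, which anchors junctions under tension, differed by -0.28 (limma adjusted p = 0.0327). Afdn kept its call only without L1CAM replicate 1, and Vcl only without L1CAM replicate 1 or control replicate 1.

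Among 7 relatives of CLEC14A, CD93 and MMRN2, 1 rose and 0 fell by the limma test (14.3% called, against 15% of all genes). At an unadjusted limma p under 0.05 also 0 were lower, and the median was -0.06. The one that rose was Thbd, thrombomodulin, the anticoagulant receptor that belongs to the same lectin-domain family as CLEC14A and CD93. Thbd read 11.53, 11.37 and 11.45 in control replicates 1, 2 and 3 and 11.93, 12.13 and 12.15 in L1CAM replicates 1, 2 and 3. Its arrays did not overlap, and the difference was 0.62 (SE 0.08, limma adjusted p = 0.00328). Clec14a, Cd93 and Thbd thus measured -1.51, 0.0052 and 0.62 in the same fit, and the difference between Thbd and the other two was not tested.

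In the Robo and Slit list 1 of 10 genes rose and 1 fell (20% called, against 15% of all genes), with a median of -0.01. Robo1, a guidance receptor, rose by 0.40 (limma adjusted p = 0.0494) from a control mean of 5.89, below the array medians, so its size is not exact. Unc5b, a netrin receptor that ROBO4 is known to bind, differed by -0.46 (limma adjusted p = 0.0199). Its values were 10.71, 10.66 and 10.64 in control cells and 10.42, 10.19 and 10.03 in L1CAM cells, without overlap. Robo1 and Unc5b kept their calls only without L1CAM replicate 1.

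In the endoglin and ALK1 list 1 of 16 genes rose and 2 fell (18.8% called, against 15% of all genes), with a median of 0.03. Tgfbr3, betaglycan, the co-receptor most like endoglin, read 7.58, 7.84 and 7.76 in control cells and 7.26, 7.08 and 7.29 in L1CAM cells, a difference of -0.52 (limma adjusted p = 0.00914). Bmpr2, the type II receptor of the complex, differed by -0.31 (limma adjusted p = 0.0191). Smad1, which carries the BMP signal to the nucleus, rose by 0.44 (limma adjusted p = 0.0122). Bmpr2 kept its call only without L1CAM replicate 1 or control replicate 1, and Smad1 lost its call without control replicate 2, control replicate 3 or L1CAM replicate 3.

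Of 29 other pan-endothelial markers 3 rose and 5 fell, with a median of -0.03. That is 27.6% called, against 15% of all genes and 19.4% of the brightest 10%. Among the called genes the largest falls were those of Jam2, a junctional adhesion molecule (-0.96, limma adjusted p = 0.000934), the VEGF receptor Flt1 (-0.82), the ETS factor Fli1 (-0.52) and the membrane protein Myct1 (-0.33, limma adjusted p = 0.0382). Cldn5, also among the defining endothelial markers, was called lower as well (-0.22, limma adjusted p = 0.0446). Sox17 rose by 1.08, Nos3 by 0.25 and Tal1 by 0.19. Flt1, Myct1, Cldn5, Nos3 and Tal1 kept their calls only without L1CAM replicate 1. Fli1 lost its call without control replicate 2, control replicate 3 or L1CAM replicate 3, and Sox17 without control replicate 2 or 3.

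**Figure D5:**
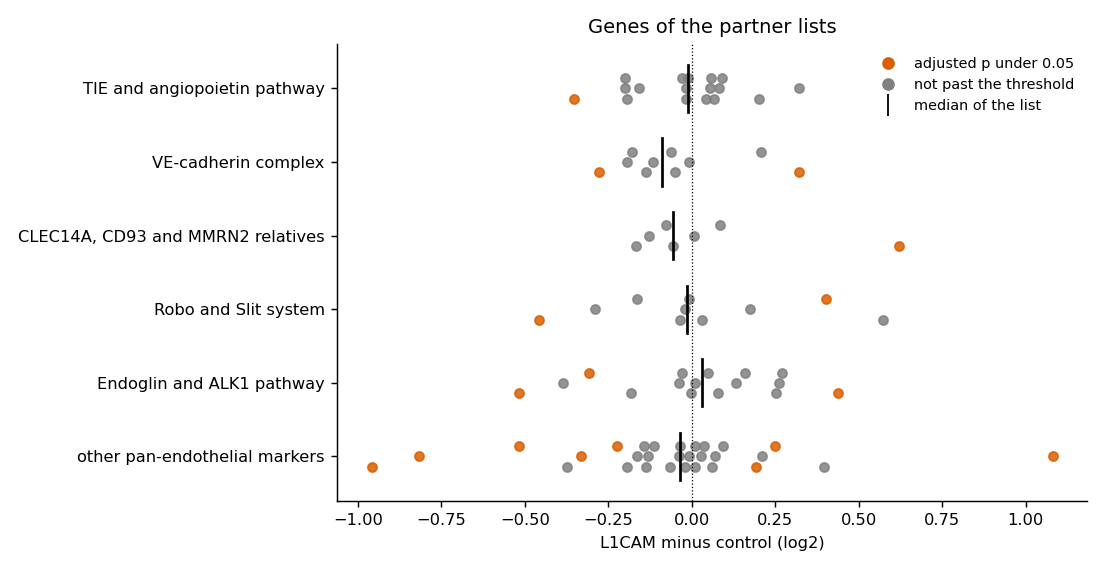
Difference L1CAM minus control (log2, horizontal axis) of each gene in the 6 partner lists, orange where the limma adjusted p is under 0.05, with a bar at each list's median; vertical offsets within a list only separate the points. List medians lie between -0.09 and 0.03, and Ptprb appears in 3 lists.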

How the data were processed

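Labelled total RNA from 6 cultures was hybridised to Affymetrix arrays. The deposited log2 values per probe set are the authors' own. Per the submitters' processing notes, RMA was run in Affymetrix Expression Console 1.1, which corrects background, normalizes between arrays and summarises probes. Its further settings, and the genome build, are not given. The table holds 35512 probe sets, of which 21789 carry 1 gene symbol in the platform annotation, 1621 several and 12102 are not listed. A gene with several was read from its brightest probe set, by the average of all 6 arrays. Symbols were checked by Entrez identifier against the GRCm38.p6 RefSeq table (19856 genes matched, 0 changed).

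Groups were compared in R 4.3.3 by limma 3.58.1 (lmFit, then eBayes) over 19938 genes, with group as the only term, Benjamini-Hochberg adjustment and a threshold of 0.05. Per-array ratios of gene pairs were compared by exact permutation in scipy 1.17.1. Figures used matplotlib 3.10.9. The fit was tested on simulated data with 200 changed genes.

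Named partner genes are the called ones, up to 4 per direction in each list. Cldn5, Angpt1 and Ptprb are named besides. The members and lists were chosen with earlier results of these data known. Alternatives were a repeated quantile normalization, centring, a filter that keeps genes brighter than the median of their array on 3 or more arrays, averaged probe sets, other variance models, array weights, a replicate block and leaving out each array; the test against a difference of 0.5 was added after seeing the data. No depth applies to arrays, whose number, 3 per group, limits the precision.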

Additional observations from a re-analysis of the deposited data

How the results depend on the processing

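The calls on Clec14a, Mmrn2 and Robo4 held under repeated quantile normalization, centring, the filter on dim probe sets, averaged probe sets, an intensity trend and robust prior, array weights and the replicate block. An ordinary linear model called 581 genes, 0 members higher, 1 lower (Eng) and 2 partner genes (members at an unadjusted p under 0.05: 1 higher, 7 lower, where 25.7% of all genes passed). Array weights called 5191 genes and 31 partner genes. Treat of limma against a difference of 0.5, added after seeing the data, called 152 genes, 0 members higher, 0 lower and 0 partner genes (unadjusted: 0, 1 and 2, with 3.13% of all genes). With each array left out in turn, 1033 to 4952 genes, 0 to 1 members higher, 0 to 2 lower and 3 to 26 partner genes were called; without control replicate 2 no member was (unadjusted: 1 higher, 3 lower, with 22.9% of all genes). The direction of 2 uncalled genes turned: Cd93 gave -0.019 with array weights and -0.033 to 0.027 with an array left out, of which -0.0092 without control replicate 3 and -0.033 without L1CAM replicate 1, and Angpt2 gave 0.0084 with array weights and -0.067 to 0.028 with an array left out, of which 0.028, 0.0093 and 0.011 without control replicate 1, control replicate 2 and L1CAM replicate 1. The change of Tek relative to Tie1 turned to -0.013 under repeated quantile normalization, and that of Pecam1 relative to Cdh5 ranged from -0.019 to 0.023 with an array left out, with -0.011 without control replicate 3 and -0.019 without L1CAM replicate 3. The cause was not tested.

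Replicate numbers are shared between the groups, but same-numbered arrays did not deviate together (correlation across genes of their deviations from the group means -0.10, -0.10 and -0.03), so the numbers were not taken as pairs. With the replicate block 2067 genes, 1 member higher, 2 lower and 13 partner genes were called. Each member has a single probe set, so no other probe set of a member could be tried. Ranked among the 11409 genes above the array median only, the control percentile was lower for all 9 members in that set. It was 68.8 against 82.2 for Clec14a and 67.2 against 81.2 for Robo4. Leaving out dimmer genes lowers these percentiles by itself, so this does not test the ranks.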
